A study of Mus musculus with 6 samples.

Results

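The genes described here are the 9 named genes that flank Rad21 on mouse chromosome 15, from Trps1 to Tnfrsf11b, with Rad21 itself left out. They were chosen by symbol: a probe set belonged if the platform annotation gave it exactly 1 of the 9 names. This gave 10 probe sets of 35556 in the table, and 9 genes of 19938 with a probe set of their own. In chromosome order the genes are Trps1, Eif3h and Utp23 on one side of Rad21, and Aard, Slc30a8, Med30, Ext1, Samd12 and Tnfrsf11b on the other. No other gene with a measured single-gene probe set lies among them, Rad21 aside.

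RNA levels came from 6 Affymetrix Mouse Gene 1.0 ST arrays, 1 per culture, of embryonic stem (ES) cells derived and grown in 2i with LIF, labelled female and of mixed C57BL/129 background. The 3 control samples were Scc1 wt/wt ERT2-Cre and the other 3 were Scc1 lox/lox ERT2-Cre, where Scc1 is an older name of Rad21. All 6 carried the tamoxifen-activated Cre and all 6 had been in 80 nM 4-hydroxytamoxifen (4-OHT) for 24 h, so the drug and the recombinase are shared and the floxed alleles are what separates the groups. How many independent lines stood behind each genotype, and which strain's DNA lay beside Rad21 in each, cannot be read from the labels, so effects of Rad21 loss and differences between lines cannot be told apart.

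Rad21 encodes the subunit that closes the ring of cohesin. Cohesin holds sister chromatids together, and by extruding chromatin loops between sites bound by CTCF it also brings some promoters and enhancers into contact. The neighbourhood is known from human genetics: TRPS1, RAD21 and EXT1 lie close together there too, and deletions that span TRPS1 and EXT1 cause Langer-Giedion syndrome. The neighbours have unrelated jobs, in transcription, translation, ribosome assembly, zinc transport, sugar chain synthesis and bone turnover.

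Levels are log2 intensities as deposited, and a change is lox/lox minus wt/wt. Genes count as called where limma's p, after Benjamini-Hochberg adjustment over all 19938 genes, was under 0.05. Rad21 fell from 10.02 ± 0.03 to 6.09 ± 0.04 (mean ± SD, n = 3 per genotype, adjusted p = 1.57e-09 in limma), as the labels imply. All 10 naive ES cell markers on the list used (Pou5f1, Sox2, Nanog, Zfp42, Esrrb, Klf4, Tfcp2l1, Dppa5a, Tdgf1 and Fgf4) lay above the array median in both genotypes. Each of the 10 had a change below 0, and 5 (50%, beside 3.61% of all genes) were called lower in lox/lox cells. Their mean level was 10.82 to 10.88 on the wt/wt arrays and 10.38 to 10.55 on the lox/lox arrays. Of markers of other cells, 0 of 9 fibroblast and 0 of 6 primitive endoderm genes were called in limma, with 1 and 0 at an unadjusted p under 0.05. Of 6 trophoblast genes 1, Tfap2c, was called lower. Over all genes 6.16% were called and 17.95% had an unadjusted p under 0.05, and lists this small are not read against those shares. In each genotype 5 fibroblast, 2 primitive endoderm and 4 trophoblast genes lay above the array median. A level above that median is thus not particular to ES cell markers.

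Of the 9 genes next to Rad21, Aard fell and the other 8 did not pass the test. Aard, which lies next to Rad21 in the gene order and encodes a protein rich in alanine and arginine, was 2.21-fold lower in lox/lox cells. The changes of the other 8 genes were all under 0.25 in size on the log2 scale, 4 of them above 0 and 4 below. The signs of Trps1, Eif3h and Utp23 did not hold in every setting. The 1 call among 9 genes is 11.1%, beside 6.16% of all genes called in either direction and 3.61% called lower, so a single call in a group of this size is close to the background share. The arrays of the genotypes did not overlap for 2 of the 9 genes, Aard and Ext1, beside 22.8% of all genes. The median change was -0.050 over the 9 genes and -0.0079 over all genes, and the median size of change, sign ignored, was 0.14 and 0.090.

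Aard (probe set 10424082) stood at 6.82, 7.33 and 7.07 on wt/wt arrays 1 to 3, and at 5.88, 5.88 and 6.02 on lox/lox arrays 1 to 3. Every lox/lox array was below every wt/wt array, with a gap of 0.80 between the lowest wt/wt and the highest lox/lox value. The means were 7.07 ± 0.25 and 5.93 ± 0.08 (SD, n = 3), both above the array median. The wt/wt arrays spread more widely than the lox/lox arrays, and 88.5% of all genes had a smaller pooled SD than Aard. The change was -1.14 with a standard error of 0.12 (95% interval -1.41 to -0.88, adjusted p = 0.000426 in limma). The level left in lox/lox cells was 45.3% of that in wt/wt cells, whereas Rad21 was left at 6.58%. In RNA from whole cultures, fewer cells with Aard and less Aard RNA per cell cannot be told apart.

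Among all genes, 41 had a larger fall than Aard, Rad21 among them. On chromosome 15 without Rad21, Aard had the largest change and the smallest p of 747 measured genes. In the same lox/lox samples 5 of the 10 naive ES cell markers were called lower, and their part in the fall of Aard was not tested. The 3 genes whose values followed Aard most closely over the 6 arrays were Kirrel (Pearson r = 0.999), Tyw3 (r = 0.997) and Reep1 (r = 0.997). Their own changes were -0.91, -0.27 and -0.83. With 6 arrays in 2 separated groups such a likeness is common: 471 genes had an r above 0.95 with Aard, and Rad21, at r = 0.96, ranked 317 by this measure.

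**Figure D1:**
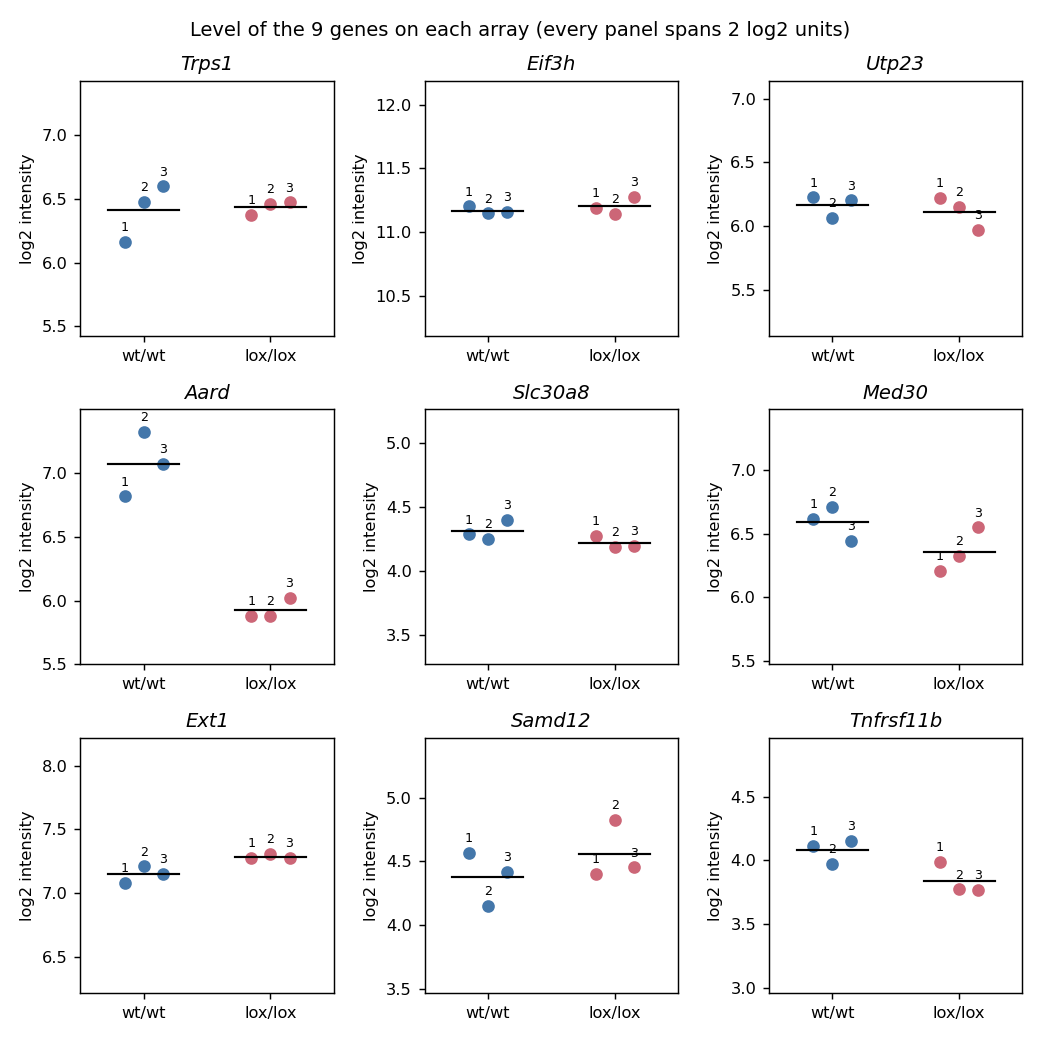
Log2 intensity of each of the 9 genes on each array, in chromosome order, with wt/wt in blue and lox/lox in red, replicate numbers beside the points and a black line at each group mean (n = 3). Every panel covers the same span on the log2 scale, and the groups stand clearly apart for Aard, at 7.07 against 5.93, while the others overlap or, for Ext1, are narrowly separated.

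On the other side of Rad21, the nearest gene was Utp23, which encodes a nucleolar protein needed to process the RNA of the small ribosomal subunit. Utp23 (probe set 10424077) stood at 6.23, 6.06 and 6.20 on the wt/wt arrays and 6.22, 6.15 and 5.97 on the lox/lox arrays. The groups overlapped, and the lowest and the next lowest value came from different genotypes. Its change was -0.050 (SE 0.090, 95% interval -0.25 to 0.15) with an adjusted p of 0.854 in limma. The interval excludes a fall of the size seen for Aard.

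Eif3h encodes a subunit of eIF3, the complex that prepares the small ribosomal subunit for translation initiation. Its probe set, 10428554, gave 11.20, 11.15 and 11.16 on the wt/wt arrays and 11.19, 11.14 and 11.28 on the lox/lox arrays. These 6 values lay close together, and 9.06% of all genes had a smaller pooled SD. The change was 0.034 (SE 0.075, 95% interval -0.13 to 0.20, adjusted p = 0.886 in limma), so this abundant transcript differed by less than the spread between replicates.

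Trps1 encodes an atypical GATA-type zinc finger protein that represses transcription and is needed for normal hair, cartilage and bone, and it is the 1 gene of the 9 with 2 probe sets. The brighter, 10428536, gave 6.17, 6.48 and 6.60 on the wt/wt arrays and 6.37, 6.46 and 6.47 on the lox/lox arrays. The lox/lox values lay inside the range of the wt/wt values. Its change was 0.022 (SE 0.11, 95% interval -0.22 to 0.26, adjusted p = 0.955 in limma). The dimmer probe set, 10428534, gave 5.76, 5.79 and 5.87 on the wt/wt arrays and 5.81, 5.65 and 5.86 on the lox/lox arrays. Its change was -0.032 in the limma fit over all 35556 probe sets (adjusted p = 0.920), so the 2 probe sets differ in sign, each with an interval that spans 0.

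Beyond Aard, the next gene was Slc30a8, the zinc transporter ZnT8, which loads zinc into the insulin granules of pancreatic beta cells. Slc30a8 (probe set 10424086) gave 4.29, 4.25 and 4.40 on the wt/wt arrays and 4.28, 4.19 and 4.20 on the lox/lox arrays. All 6 values were below the array median, where background can hold weak signals up and a change may be understated, and the groups overlapped. The change was -0.093 (SE 0.078, 95% interval -0.27 to 0.081, adjusted p = 0.626 in limma). Of 4 measured beta cell markers, 0 were called in limma, and 0 had an unadjusted p under 0.05.

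Med30 encodes a subunit of Mediator, the complex that links transcription factors to RNA polymerase II. Its probe set, 10424097, gave 6.62, 6.71 and 6.44 on the wt/wt arrays and 6.21, 6.32 and 6.55 on the lox/lox arrays. Lox/lox replicate 3 lay above wt/wt replicate 3, while the other 2 lox/lox arrays lay below every wt/wt array. The change was -0.23 (SE 0.11, 95% interval -0.47 to 0.0075) and did not pass, with an adjusted p of 0.297 in limma.

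Ext1 encodes the polymerase that, together with Ext2, builds heparan sulfate chains. Ext1 (probe set 10428579) gave 7.08, 7.21 and 7.15 on the wt/wt arrays and 7.28, 7.31 and 7.28 on the lox/lox arrays. Here every lox/lox array was above every wt/wt array, by a gap of 0.065 between the nearest. The change of 0.14 was 1.10-fold (SE 0.074, 95% interval -0.026 to 0.30), and the adjusted p was 0.380 in limma. The spread within the genotypes was small, and 6.30% of all genes had a smaller pooled SD.

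Samd12 encodes a protein with a SAM domain, a module through which proteins bind each other. Samd12 (probe set 10428594) gave 4.57, 4.15 and 4.42 on the wt/wt arrays and 4.40, 4.82 and 4.45 on the lox/lox arrays. Wt/wt replicate 2 was the lowest and lox/lox replicate 2 the highest, and the remaining arrays overlapped. Its change was 0.18 (SE 0.13, 95% interval -0.11 to 0.48, adjusted p = 0.558 in limma). Samd12 had the widest interval of the 9, with 94.4% of all genes less variable by pooled SD.

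Tnfrsf11b encodes osteoprotegerin, the secreted decoy receptor that binds RANKL and so restrains osteoclasts. Its probe set, 10428604, gave 4.11, 3.97 and 4.16 on the wt/wt arrays and 3.99, 3.77 and 3.77 on the lox/lox arrays. Lox/lox replicate 1 lay just above wt/wt replicate 2, and all 6 values were below the array median. The change was -0.24 (SE 0.090, 95% interval -0.44 to -0.035). It had an unadjusted p of 0.0256 and did not pass after adjustment in limma (adjusted p = 0.190). Of 4 measured markers of cartilage and bone, 0 were called in limma and 0 had an unadjusted p under 0.05.

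**Figure D2:**
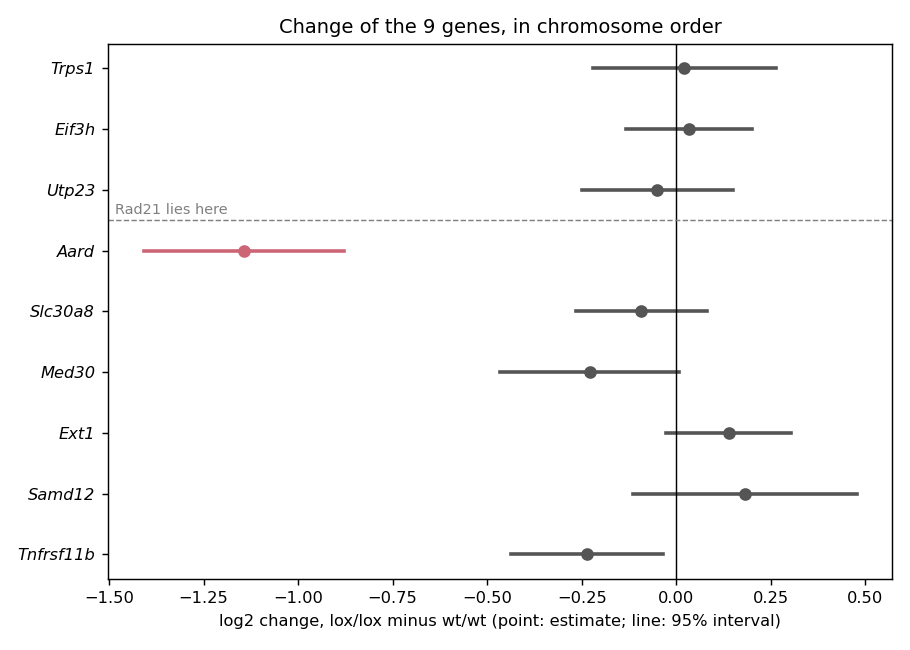
Log2 change of each gene (point) with its 95% interval from limma (line), in chromosome order from top to bottom, with a dashed line where Rad21 lies. The interval of Aard, from -1.41 to -0.88, does not meet that of any other gene, and the interval of Tnfrsf11b, which was not called, ends at -0.035.

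The change of Aard was set beside that of each of the other 8 genes, which restates the changes given above. This is a description with no test, since Aard was singled out after its values were seen. The change of Aard was lower than that of its neighbours by 0.91 (against Tnfrsf11b and Med30) to 1.32 (against Samd12) on the log2 scale. The lowest bound among the 95% intervals of the other 8 genes was -0.47, for Med30.

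The wider neighbourhood was read in windows of measured genes counted from Rad21. Of the 10 genes on each side, 20 in all, Aard was the 1 gene called (5%, beside 6.16% of all genes). Of the 25 on each side 2 were called, Aard and the homeobox zinc finger gene Zhx1, 25 genes away on the side of Aard and chosen after its values were seen, with a change of 0.48 (adjusted p = 0.00951 in limma). Of the 50 on each side, 6 were called (6%), 4 higher and 2 lower. Myc, 47 genes from Rad21 on the side of Aard, was among the higher ones, with control cells at 6.53 ± 0.22 and lox/lox cells at 7.64 ± 0.17, a change of 1.11. In the rest of chromosome 15, 36 of 647 genes were called (5.56%).

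**Figure D3:**
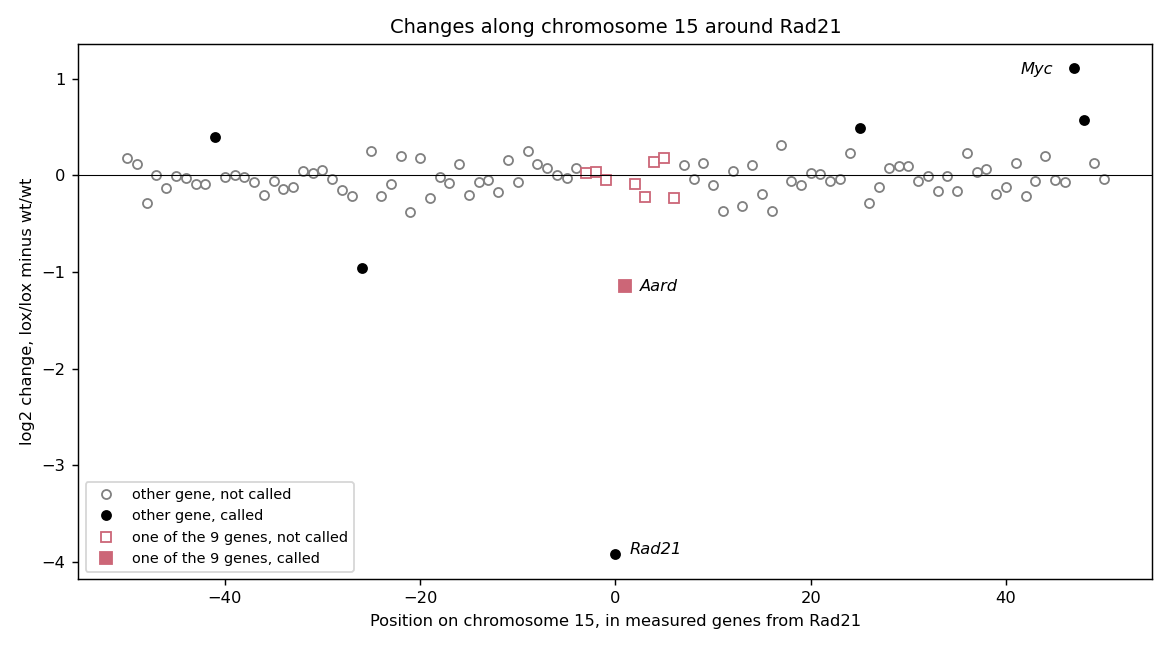
Log2 change of each measured gene within 50 genes of Rad21 on chromosome 15, plotted by its place in the gene order, with squares for the 9 flanking genes, circles for the others and filled marks for called genes. Aard, at -1.14, is the filled mark beside Rad21, at -3.92, and the other 8 squares lie near 0.

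The side of Rad21 that holds Trps1, Eif3h and Utp23 had 0 called genes within 25 genes in limma and 2 within 50 (4%). The side that holds Aard had 2 within 25 (8%) and 4 within 50 (8%). Over all genes 6.16% were called, and counts this small lie near that share. At an unadjusted p under 0.05 there were 4 and 8 of 25 genes on those sides, beside 17.95% of all genes. The cut at 25 decides the count of 0: Dcstamp, 26 genes from Rad21 on the side of Trps1 and named after its values were seen, had a change of -0.96 (adjusted p = 0.000903 in limma). The difference between the sides was not tested.

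Partner genes of the flanking genes were read from 7 lists of complexes and families, of which 86 of 90 genes were measured. Of these, 7 were called (8.14%, beside 6.16% of all genes), 1 higher and 6 lower in lox/lox cells (6.98% lower, beside 3.61% of all genes). With so few genes per list, 1 or 2 calls in a list are not read against that share. That count depended on single arrays. Leaving out wt/wt replicate 2 gave 3 calls, and leaving out any of wt/wt replicates 1 and 3 and lox/lox replicates 1 and 2 gave 4. In none of the 7 lists had the flanking gene itself been called.

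In translation and ribosome assembly no partner passed, where 6.16% of all genes were called and 17.95% had an unadjusted p under 0.05. Among 10 measured eIF3 subunits, partners of Eif3h, 0 were called in limma and 1 had an unadjusted p under 0.05, with a median change of -0.040. The members with the smallest p, Eif3k and Eif3l, had log2 changes of 0.17 and 0.15 (adjusted p = 0.237 and 0.360 in limma). Among 28 genes of the small subunit processome and its RNA processing, where Utp23 acts, 0 were called in limma and 5 had an unadjusted p under 0.05, with a median of -0.017. Utp14a and Utp18 came nearest, with log2 changes of 0.30 and -0.28 and adjusted p of 0.0655 and 0.0940 in limma. The arrays of the genotypes did not overlap for 4 of the eIF3 subunits (40%) and 11 of the processome genes (39.3%). Over all genes this share was 22.8%, and the difference was not tested.

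Heparan sulfate synthesis, the pathway of Ext1, had 17 measured partners, of which 1 was called higher and 1 called lower, with a median of 0.00018. Hs6st2, a sulfotransferase acting at the 6-O position of the chain, rose from 3.69 ± 0.21 to 4.98 ± 0.23, a change of 1.28 (SE 0.13, adjusted p = 0.000440 in limma). Its wt/wt level lay below the array median, so that change, too, may be understated. Hs6st1, which carries out the same reaction, fell from 8.24 ± 0.11 to 7.54 ± 0.11, a change of -0.71 (SE 0.090, adjusted p = 0.00132 in limma). Both kept their calls whichever of the 6 arrays was left out. Ext2, the partner of Ext1 in the polymerase, named after its values were seen, had a change of -0.0050 (adjusted p = 0.985 in limma).

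Of the 9 other members of the Slc30 family, relatives of Slc30a8, 5 had a change below 0 and 2 were called lower. The median was -0.0039 over the list. Slc30a1, which exports zinc through the plasma membrane, fell from 7.95 ± 0.02 to 7.23 ± 0.06, a change of -0.72 (SE 0.074, adjusted p = 0.000390 in limma), and kept its call whichever array was left out. Slc30a3, a transporter of synaptic vesicles, had a change of -0.35 (adjusted p = 0.0471 in limma) and lost its call when any of the 6 arrays was left out (wt/wt replicate 3 gave the highest adjusted p, 0.134).

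Of 13 other Mediator subunits, partners of Med30, Med29 was called, with a change of -0.34 (adjusted p = 0.0273 in limma) and a list median of -0.093. Its call, too, was lost when any of the 6 arrays was left out (highest adjusted p 0.0891, on leaving out wt/wt replicate 3). Med28 had the next smallest p, with a change of -0.43 (adjusted p = 0.0586 in limma). Of the 6 GATA factors, to whose zinc finger family Trps1 belongs, Gata3 and Gata2 were called, with changes of -0.62 and -0.40 (adjusted p = 0.0170 and 0.0171 in limma), and the list median was 0.057. On leaving out each array in turn, Gata3 lost its call in 3 and Gata2 in 4 of the 6 fits (highest adjusted p 0.0750 for Gata3, with wt/wt replicate 3 left out, and 0.0592 for Gata2, with wt/wt replicate 2 left out). Of the 3 partners of Tnfrsf11b, 0 were called in limma and 0 had an unadjusted p under 0.05; the smallest p were those of the RANK gene Tnfrsf11a and of Tnfsf10, which encodes TRAIL, with changes of 0.082 and 0.051.

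**Figure D4:**
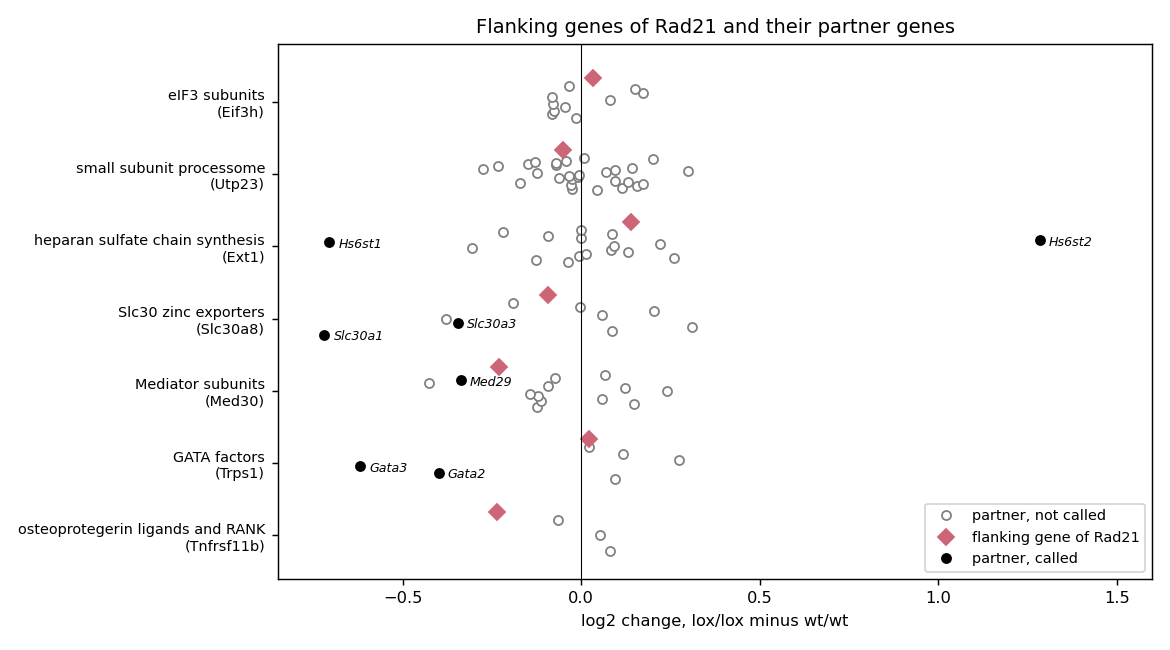
Log2 change of each partner gene, 1 row per list (open circles not called, filled circles called), with a red diamond for the flanking gene of Rad21 to which the list belongs. The diamonds lie between -0.24 and 0.14, while called partners reach from -0.72 (Slc30a1) to 1.28 (Hs6st2, below the array median in wt/wt cells).

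The changes of the 9 genes were recomputed under other settings of normalization, filtering, variance model and arrays. Aard remained called in all 15 of its other settings, with changes from -1.27 to -1.02 and adjusted p from 5.36e-05 to 0.0119 in limma. Its smallest fall came without wt/wt replicate 2, the array on which Aard was highest. The other 8 genes were called in 0 of their settings, and the smallest adjusted p any of them reached was 0.109, for Tnfrsf11b. The changes of Trps1, Eif3h and Utp23 crossed 0 between settings, so their signs are not read as a direction.

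**Figure D5:**
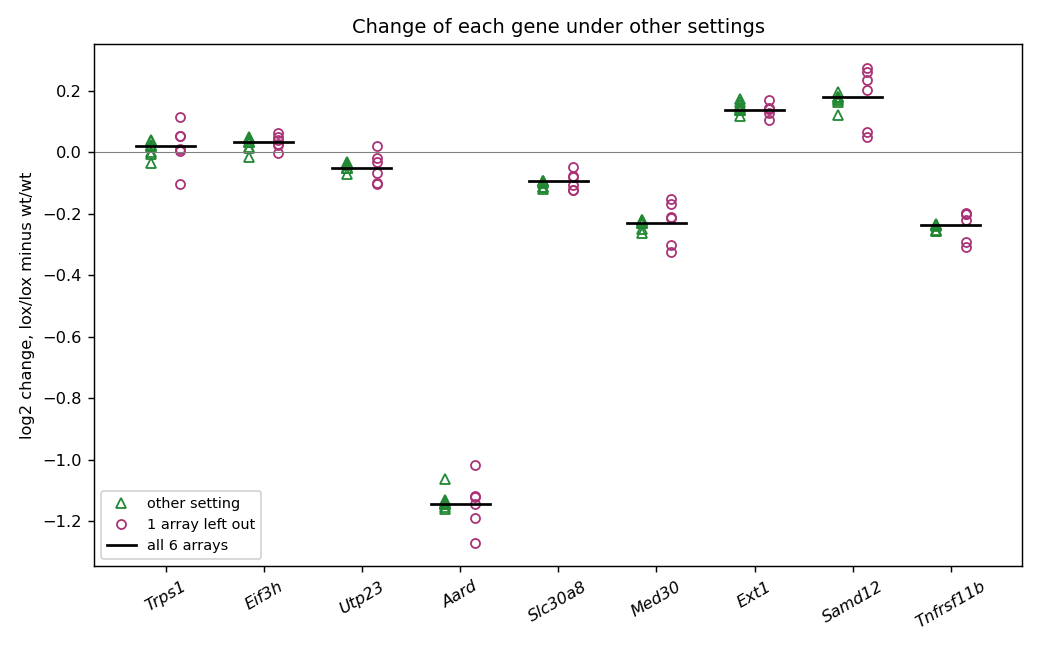
Log2 change of each gene with all 6 arrays (black line), with 1 array left out (circles) and under the other settings (triangles). Aard stays between -1.27 and -1.02, apart from the other 8 genes, which lie between -0.32 and 0.28.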

How the data were processed

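The deposited table holds log2 values of 6 arrays, made by the authors with RMA and affy, per the submitters' processing notes; the sources used here give no version, build or option. RMA normalizes arrays against each other, so a change in total RNA per cell cannot be seen. The 4-OHT dose is that of the sample labels; the design text gives it in mM. Array medians lay between 4.85 and 4.94, correlations within a genotype between 0.9922 and 0.9947, and the number of arrays limits the precision.

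Names came from the platform annotation: 21789 probe sets had 1 symbol, 1621 several and 12146 are unnamed here. The probe set with the highest mean represented each gene. Gene order came from the RefSeq table of GRCm38.p6, which matched 21698 probe sets by Entrez ID. The test was limma 3.58.1 under R 4.3.3 (lmFit, eBayes), lox/lox minus wt/wt, the code tested on simulated arrays. Its p-values rest on the spread among 3 biological replicates (per the design text) per genotype, drawn towards the spread of all genes. The shared part had 6.14 degrees of freedom, beside 4 from a gene's own arrays. Aard, with a wide spread, thereby got a smaller standard error than its own arrays alone would give. Ext1, with a narrow spread, got a larger one. The members, lists and alternatives were chosen with earlier results of these data known. Text names all 9 genes, Rad21, Myc, called genes within 5 of Rad21, called and the 2 smallest-p partners, and the 3 genes most like a called member. Partners Eif3g, Eif3j1, Eif3j2 and Ndst1, and markers Ins1, Runx2 and Bglap, were not analysed here.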

Additional observations from a re-analysis of the deposited data

How the results depend on the processing

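Aard kept its direction and its call under every alternative run, and the count of 1 called gene was the same for the 9 genes and for the 10 genes on each side of Rad21. With 25 and 50 genes on each side the count was 2 and 6. Over all genes, 1228 were called, 548 with all probe sets in one fit and 553 at an adjusted p under 0.01. With a change of at least 1.5-fold as well as an adjusted p under 0.05 the count was 451. Without wt/wt replicate 2 and lox/lox replicate 3 together, the arrays with the lowest median in each genotype (4.85 and 4.87), 697 were called. Without 1 array the count was between 626 and 1132. The lowest counts were those without wt/wt replicate 2 (806), wt/wt replicate 3 (661) and lox/lox replicate 2 (626). Of partner genes, 7 were called, 3 with all probe sets in one fit, 11 with array weights and 3 to 6 without 1 array. Changes that turned sign, the cause of which was not tested, were those of Trps1 (-0.036 with array weights, -0.0051 for the mean of its probe sets, and -0.10 to 0.11 without 1 array), Eif3h (-0.014 without those same 2 arrays, and -0.0033 to 0.063 without 1) and Utp23 (-0.10 to 0.020 without 1). None of these was called. Without 1 array the range was -1.27 to -1.02 for Aard, -0.12 to -0.049 for Slc30a8, -0.32 to -0.15 for Med30, 0.11 to 0.17 for Ext1, 0.050 to 0.28 for Samd12 and -0.31 to -0.20 for Tnfrsf11b. The filter on dim genes removed Slc30a8, Samd12 and Tnfrsf11b, so it gave no value for them. Replicate numbers are shared by the genotypes but same-numbered arrays did not deviate together (r = 0.10, -0.23 and -0.10 across genes), and no wt/wt array correlated best with its own number. For wt/wt replicate 2 the best match was lox/lox replicate 3. With the replicate number as a block 1086 genes, the same 1 of 9 genes and 7 partner genes were called, and the adjusted p of Aard was 0.000252 in limma. Weak signal limits Slc30a8, Samd12 and Tnfrsf11b, which lay below the array median, and the partner Hs6st2, which did so in wt/wt cells.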
